A study of Mus musculus with 7 samples.

Results

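The Tead transcription factors and the Hippo pathway regulators around them were followed here as accessible chromatin, at every listed site whose midpoint lay within 50 kb of a transcription start site (TSS) of Tead1, Tead2, Tead3, Tead4, Yap1, Wwtr1, Lats1, Lats2, Amotl2 or Vgll4. TSSs were those of curated RefSeq transcripts on the mm10 build. The rule took 61 of the 75880 sites in the deposited table, and each of the 10 genes had between 4 and 9. It used position alone, with no measured value.

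ATAC-seq cuts open chromatin with the transposase Tn5, and was carried out on day 2 epiblast-like cells (EpiLCs), the in vitro counterpart of the early postimplantation epiblast, made from embryonic stem cells (ESCs) of 129/Sv//Ev background. Wild-type (WT) EpiLCs came from clone CCE and Smad2/3 double knockout (DKO) EpiLCs from clone KT15.1F6, each as 3 differentiations. Both were grown for 48 h with 12 ng/ml Fgf2 and 20 ng/ml activin A, so both received the ligand whose Smad2/3 branch the DKO cells lack. The DKO line carries the Smad2 tm1Rob allele on both chromosomes and a Cas9 nickase deletion at the Smad3 promoter and first exon. With 1 clone per genotype, genotype and clone cannot be told apart. A library of Tn5-cut genomic DNA from WT EpiLCs (1 sample) served the authors as the control for finding sites and has no column of its own.

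In the Hippo pathway, the kinases Lats1 and Lats2 phosphorylate the coactivators Yap1 and Wwtr1 (Taz) and keep them out of the nucleus. Without that phosphorylation the coactivators enter the nucleus and bind the Tead factors, which hold the DNA. Amotl2 retains Yap1 at junctions and in the cytoplasm, and Vgll4 competes with Yap1 for Tead binding. In the mouse embryo this pathway separates trophectoderm from inner cell mass, with Tead4 acting on the trophectoderm gene Cdx2, and it sorts epiblast cells before implantation.

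The values are the authors' concentrations, the log2 of the mean normalized reads at a site over the libraries of a genotype. The table holds 1 such mean per genotype, so the spread between differentiations and the read depth cannot be read from it. The authors' own test columns were not used, no test was made on the means, and every difference given (DKO minus WT, log2) compares 2 means. A site was counted as lower or higher when the means differed by more than 1.5-fold. The labelled Smad3 deletion was visible: the Smad3 promoter site had a concentration of 5.42 in WT and -0.10 in DKO cells. The Smad2 promoter site was at 8.35 in WT and 8.28 in DKO cells. Of the epiblast markers, the promoters of Pou5f1, Fgf5, Pou3f1 and Dnmt3b were listed at 5.66 to 7.71 in WT and 5.63 to 7.72 in DKO cells, and Otx2 had no site within 1 kb. All 8 promoters checked for endoderm, trophoblast and mesoderm were also listed, at 3.42 to 8.69 in WT and 3.27 to 8.46 in DKO cells, so open promoters did not separate these cell types.

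Of the 61 sites near the pathway genes, 6 were lower and 5 higher in DKO cells. That is 9.84% and 8.20%, beside 16.0% lower and 8.51% higher over all listed sites. The median difference was 0.03 (quartiles -0.31 and 0.28), against -0.08 (quartiles -0.39 and 0.20) over all listed sites. Every member lies near a gene, and of the 47687 listed sites within 50 kb of any TSS, 12.7% were lower and 7.96% higher, with a median of -0.05. After centring on the median of all listed sites, 4 member sites were lower and 6 higher, beside 13.3% and 10.5% of all listed sites. With a concentration of at least 4 in the higher genotype, 54 member sites were left, of which 5 were lower and 5 higher, where 14.7% of all such sites were lower and 6.87% higher.

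**Figure D1:**
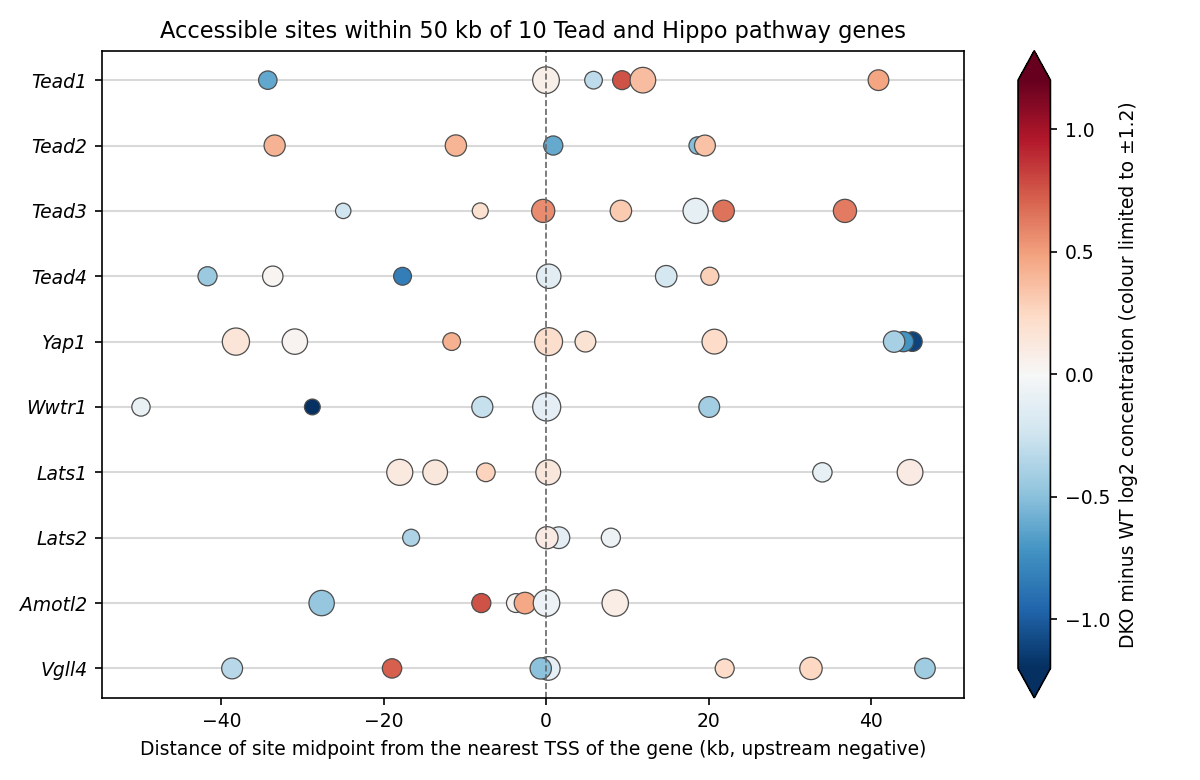
Each circle is 1 of the 61 listed sites, placed by the distance of its midpoint from the nearest TSS of the gene named at the left (kb, upstream negative), coloured by the DKO minus WT log2 concentration and sized by mean concentration. Pale circles sit at most TSSs, and the darkest blue circles are the Wwtr1 site 28.8 kb upstream, the Yap1 site 45.1 kb downstream and the Tead4 site 17.7 kb upstream.

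The first 4 stretches of sequence given here hold the largest differences among sites past the fold, over 1 kb from every TSS and with a concentration of at least 4 in the higher genotype. They are mm10 reference sequence, plus strand, as the table bounds them, and capitals mark exact matches to short strings known from transcription factor motifs. The Yap1 stretch (chr9:7959410-7959560, intron 4) and the Tead4 stretch (chr6:128318420-128318590, intergenic) were lower in DKO cells, and the Amotl2 (chr9:102709670-102709960, intergenic) and Tead1 (chr7:112688600-112688810, intron 1) stretches were higher. The Wwtr1 stretch is the central 300 bp of the site with the largest difference of all (chr3:57604565-57604864, intergenic), and is below that concentration and was added after its values were seen.
Yap1 intron 4: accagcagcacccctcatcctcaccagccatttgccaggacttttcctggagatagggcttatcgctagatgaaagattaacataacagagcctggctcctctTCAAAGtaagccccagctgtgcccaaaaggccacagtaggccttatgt
Tead4 upstream: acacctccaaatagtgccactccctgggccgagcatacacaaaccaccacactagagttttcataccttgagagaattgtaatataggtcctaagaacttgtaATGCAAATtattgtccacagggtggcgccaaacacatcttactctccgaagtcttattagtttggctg
Amotl2 upstream: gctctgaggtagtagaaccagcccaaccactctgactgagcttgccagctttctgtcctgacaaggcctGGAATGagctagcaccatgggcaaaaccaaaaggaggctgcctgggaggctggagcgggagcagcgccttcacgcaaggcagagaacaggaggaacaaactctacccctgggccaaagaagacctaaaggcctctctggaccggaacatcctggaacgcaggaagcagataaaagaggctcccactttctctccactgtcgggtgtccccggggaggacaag
Tead1 intron 1: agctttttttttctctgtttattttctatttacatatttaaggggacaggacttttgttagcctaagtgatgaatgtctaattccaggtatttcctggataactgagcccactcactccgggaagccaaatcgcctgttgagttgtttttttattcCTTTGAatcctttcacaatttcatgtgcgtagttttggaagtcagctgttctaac
Wwtr1 upstream: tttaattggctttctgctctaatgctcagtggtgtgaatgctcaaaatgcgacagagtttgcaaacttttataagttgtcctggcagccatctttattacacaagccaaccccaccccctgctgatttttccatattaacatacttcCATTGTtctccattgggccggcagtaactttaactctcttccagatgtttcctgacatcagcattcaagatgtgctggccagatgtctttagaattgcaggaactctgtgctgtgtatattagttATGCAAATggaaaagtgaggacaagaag
The capitals mark TCAAAG (Tcf/Lef, read on the minus strand) in Yap1, ATGCAAAT (the octamer bound by POU factors such as Oct4) in Tead4, GGAATG (the Tead core) in Amotl2, CTTTGA (Tcf/Lef) in Tead1, and CATTGT (Sox) with ATGCAAAT in Wwtr1. A match describes letters, not a bound site.

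The Tead factors share a DNA-binding domain and differ in where and when they are made. Their 24 sites held 3 lower and 3 higher ones (12.5% each), with a median difference of 0.13. Over all listed sites 16.0% were lower and 8.51% higher. Tead1 had an open promoter (chr7:112678540-112680130) at 7.87 in WT and 7.94 in DKO cells, a difference of 0.07. The site 34.3 kb upstream went from 4.29 to 3.67 (-0.62), and the one 9.35 kb into intron 1 from 3.78 to 4.54 (0.76). The next site in that intron, 11.9 kb from the TSS, was broad and strong and went from 7.13 to 7.50 (0.37), and a site 40.9 kb into the gene from 4.68 to 5.15 (0.47). Of the 4 sites inside Tead1 past the promoter, 3 thus had a difference above 0, 1 of them past the fold. The site at 5.83 kb was below 0 (3.88 and 3.57), as were 57.4% of all listed sites.

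Tead2, a family member made from the earliest stages of the embryo, had a weak site as its only one within 1 kb of the TSS. That site (chr7:45216450-45216880, intron 1) went from 4.57 to 3.96. At -0.61 it was just past the fold, and 19.7% of the sites of like mean concentration were as low. The site was also the only one of the 11 sites within 1 kb of a member's TSS that was counted as lower. Its strongest site, 11.1 kb upstream in the first exon of Kash5, went from 4.98 to 5.39 (0.41), and a site 33.4 kb upstream near Pth2 from 4.91 to 5.33 (0.42). Only 1 of the 5 Tead2 sites had Tead2 as its nearest gene, so the locus is crowded.

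Tead3 had the largest upward difference among the member promoters. Its promoter site (chr17:28350930-28351410) went from 5.75 to 6.32, a difference of 0.57 that fell just short of the fold. The 2 sites counted as higher were both promoters of neighbours. The Fance promoter (Fance is a Fanconi anaemia DNA repair gene) went from 5.75 to 6.37 (0.62), and the promoter of Rpl10a, a ribosomal protein gene, from 4.94 to 5.59 (0.65). Of the sites of like mean concentration, 2.72% were as high as the first and 4.21% as high as the second. The strongest Tead3 site, over the last exon of the gene, stayed at 7.15 and 7.04. The other 42 listed sites within 1 Mb of Tead3 had a median difference of 0.35, the highest of the 10 neighbourhoods, which ran from -0.21 at Tead4 to 0.35. Relative to that median the Fance, Rpl10a and Tead3 promoters differed by 0.27, 0.30 and 0.22, and the part of a wider shift in these values was not tested.

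Tead4, the factor needed for trophectoderm, had a promoter site (chr6:128300020-128300970) at 6.74 in WT and 6.60 in DKO cells. The site 17.7 kb upstream, printed above, went from 4.15 to 3.32, a difference of -0.83. Of the 9470 sites of like mean concentration, 16.4% were as low. Another upstream site, in the first intron of Tulp3, went from 4.47 to 4.02 (-0.45), while another between them stayed at 4.80 and 4.82. The 83 other listed sites within 1 Mb had a median of -0.21, and relative to it the site 17.7 kb upstream differed by -0.62.

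**Figure D2:**
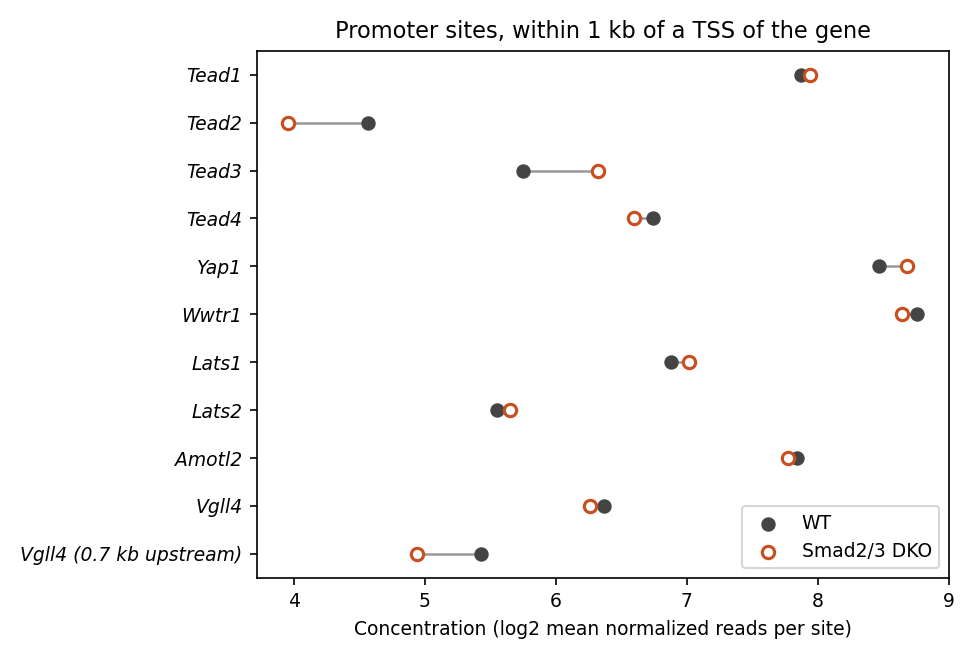
Concentration (log2 mean normalized reads per site) at the 11 sites within 1 kb of a TSS of the 10 genes, with filled points for WT and open points for Smad2/3 DKO, each 1 genotype mean with no error available. The widest gaps are those of Tead2, Tead3 and the upstream Vgll4 site, at -0.61, 0.57 and -0.49.

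The coactivators had the highest promoter concentrations of the 10 genes. Yap1 (chr9:8003490-8005100) was at 8.47 in WT and 8.68 in DKO cells, and Wwtr1 (chr3:57574820-57576800) at 8.76 and 8.64. Their 14 sites, promoters included, held 3 lower ones (21.4%) and no higher one, beside 16.0% lower and 8.51% higher over all listed sites. At Yap1 the sites below 0 lay together. The 3 sites in intron 4, between 42.9 and 45.1 kb from the TSS, were each below 0: from 4.92 to 3.81 (-1.11), from 5.05 to 4.33 (-0.72) and from 5.44 to 5.04 (-0.40). The 6 other Yap1 sites, in intron 2, at the promoter and upstream, were each above 0, between 0.03 and 0.43. Among the 11204 listed sites with a mean concentration within 0.25 of the first, 5.36% had a difference as low or lower. The densest site of all members was in Yap1 intron 2, 20.7 kb from the TSS, with 366 mean normalized reads per kb in WT and 430 in DKO cells.

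At Wwtr1 each of the 5 sites was lower in the DKO mean, 1 of them past the fold. A difference below 0 was found at 57.4% of all listed sites and at 55.0% of those within 50 kb of any TSS. The intergenic site 28.8 kb upstream (chr3:57604530-57604900) went from 3.89 to 0.89, that is from 14.8 to 1.85 mean normalized reads. It was a weak site, below a concentration of 4 in both genotypes, its nearest TSS was that of Mir6377, and 1.42% of the 3025 sites of like mean concentration were as low. The remaining 4 differed by -0.42, -0.12, -0.28 and -0.08, the first in intron 2 and the second at the promoter.

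The Lats kinases showed the smallest differences. None of their 10 sites passed the fold, and the range ran from -0.37 to 0.28. The fold was passed by 24.5% of all listed sites and by 7.85% of those within 1 kb of any TSS. The Lats1 promoter (chr10:7680960-7681960) was at 6.88 in WT and 7.02 in DKO cells, and the Lats2 promoter (chr14:57745640-57746400) at 5.55 and 5.65. Lats1 lies among other genes with open promoters, and 3 of its 6 sites were promoters of neighbours. These were the site shared by Pcmt1 and A630066F11Rik (7.50 and 7.62), Nup43 (6.77 and 6.91) and Katna1 (7.33 and 7.43). At Lats2 the second site, near its other TSS in intron 2, was at 5.44 and 5.31, and a weak site 16.6 kb upstream went from 3.63 to 3.26. The median absolute difference of the Lats sites was 0.12, where it was 0.30 over all listed sites and 0.39 over the Tead sites. The Lats sites include the promoters named above, and over all listed sites within 1 kb of any TSS it was 0.17. Over all listed sites the median absolute difference was 0.36 at a mean concentration of 4 to 5, 0.27 at 5 to 6 and 0.12 at 8 to 9, and the Lats sites had a median WT concentration of 5.50 against 5.06 over all listed sites.

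The 2 proteins that restrain Yap1 outside the kinase step each had 1 site counted as higher and none as lower. Together that was 15.4% of their 13 sites higher, beside 8.51% higher and 16.0% lower over all listed sites. With so few sites the counts do not separate this group from all listed sites. The Amotl2 promoter (chr9:102717000-102718690) was at 7.84 in WT and 7.77 in DKO cells. Upstream of it, a site at 7.99 kb went from 3.84 to 4.60 (0.76) and one at 2.61 kb from 5.08 to 5.54 (0.46), whereas a broad site 27.7 kb upstream went from 7.40 to 6.94 (-0.46). That last difference did not pass the fold, yet 7.18% of the 3690 sites of like concentration were as low. At Vgll4 the promoter (chr6:114968510-114969390) stayed at 6.37 and 6.26 and a second site 0.667 kb upstream of the TSS went from 5.43 to 4.94 (-0.49). The site 19.0 kb upstream of Vgll4 went from 3.98 to 4.70 (0.72). Of the sites of like concentration, 6.75% were as high as the Amotl2 site at 7.99 kb and 6.70% as high as that Vgll4 site.

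**Figure D3:**
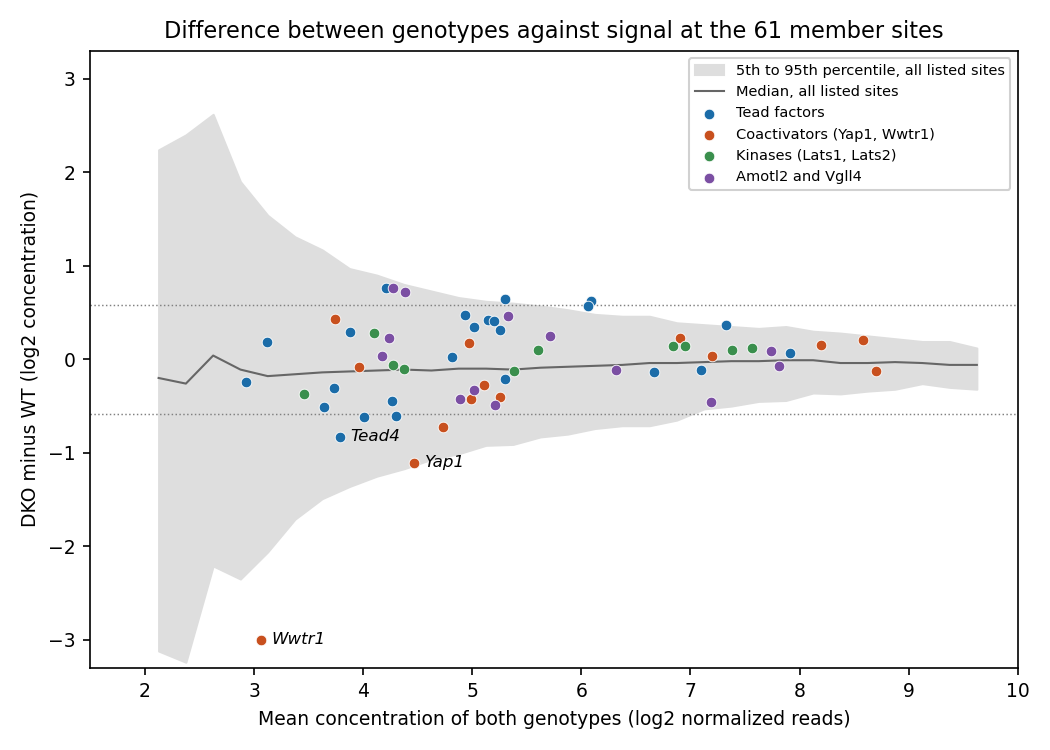
DKO minus WT difference (log2) against mean concentration (log2 normalized reads) at the 61 sites, coloured by role, over the 5th to 95th percentile band and the median line of all listed sites in bins of concentration; dotted lines mark the 1.5-fold limits. The Wwtr1 site at -3.00 lies below the band, the Yap1 site at -1.11 near its lower edge, and the Tead3 sites at 0.57 to 0.65 at or above its upper edge.

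Per length, the promoter order in WT cells was Yap1 (220 mean normalized reads per kb), Wwtr1 (219), Tead1 (147), Amotl2 (136), Lats1 (118), Tead4 (113), Tead3 (112), Vgll4 (103 and 94.0 for its 2 sites), Lats2 (61.6) and Tead2 (55.2). In DKO cells Tead3 stood at 166 per kb, above Tead1 at 154, and Yap1 at 255 was above Wwtr1 at 201. Without a spread between differentiations, neighbours in this order cannot be told apart.

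Within 1 kb of a member's TSS, 1 of 11 sites was lower and none higher, beside 4.17% and 3.69% of the 15001 listed sites that close to any TSS. At 1 to 10 kb of the member's TSS, none of 13 was lower and 2 were higher. Of all listed sites 1 to 10 kb from their nearest TSS, 15.7% were lower and 9.39% higher. At 10 to 50 kb, 5 of 37 were lower and 3 higher (13.5% and 8.11%), beside 17.2% and 10.2% of all listed sites at that distance. The distances of member sites are to the member's own TSS, and some of these sites are promoters of other genes. Over 1 kb from every TSS, 5 of 43 member sites were lower and 3 higher (11.6% and 6.98%), beside 18.9% and 9.70% of the 60879 listed sites that far away. The 7 sites at promoters of other genes each had a difference above 0, between 0.10 and 0.65, and they came from the surroundings of Tead2, Tead3, Yap1 and Lats1. Of the 15001 listed sites within 1 kb of any TSS, 48.2% were below 0, and their median was 0.01. Of the 61 sites, 28 had their midpoint in an intron, 17 between genes, 9 in a 5′ UTR, 5 in a coding exon and 2 in a 3′ UTR.

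The strings were counted in the 500 bp around each midpoint, on both strands, as exact matches. The Tead core GGAATG occurred at 22 of 61 sites (36.1%, 95% Wilson interval 25.2 to 48.6), at 26.7% of all listed sites and at 24.6% of the 47687 listed sites within 50 kb of any TSS. Away from every TSS by over 1 kb, the shares were 32.6% of 43 member sites and 29.0% of all such sites. The longer form GGAATGT, which contains the first string, occurred at 6.56% of members and 7.77% of all listed sites. Member sites without the core had 5 lower and 4 higher among 39, those with 1 match 1 lower and none higher among 15, and those with 2 or more none lower and 1 higher among 7. Over all listed sites the shares lower and higher were 15.5% and 7.93% without the core, 17.5% and 9.53% with 1 match, and 16.4% and 12.8% with 2 or more. The Smad string CAGACA was found at 34.4% of members and 36.0% of all listed sites, the FoxH1 string TGTGGATT at 3.28% and 1.85%, the octamer ATGCAAAT at 8.20% and 4.38%, the Sox string CATTGT at 23.0% and 20.7%, and the Tcf/Lef string CTTTGA at 24.6% and 28.2%. Intervals cover counting error only. The interval for the Tead core takes in the share of all listed sites, and the share within 50 kb of any TSS lies just below it.

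The rest of the pathway was read from a list of 42 further genes, all of which had a listed site. Of its 220 sites, 25 were lower (11.4%) and 16 higher (7.27%), with a median difference of -0.04, beside 16.0% and 8.51% of all listed sites and 12.7% and 7.96% of those within 50 kb of any TSS. After centring the counts were 19 lower and 20 higher, beside 13.3% and 10.5% of all listed sites. At 12 genes sites were counted as lower only, at 5 as higher only, at 7 in both directions and at 18 in neither. The genes differed in their number of sites, and no such counts were made over all genes. The 12 and 5 are therefore not read as a lean of the pathway. Upstream kinases and scaffolds (90 sites) had 11 lower and 7 higher, cofactors and Yap-binding proteins (24 sites) 1 lower and none higher, and Yap/Tead target genes (106 sites) 13 lower and 9 higher. Promoters of 39 of these genes were listed, and their differences ran from -0.63 at Myof, the single one past the fold, to 0.45 at Axl. Of the 15001 listed sites within 1 kb of any TSS, 7.85% passed the fold.

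Among sites with a concentration of at least 4 in the higher genotype, the 3 largest differences of the list in each direction lay away from promoters. An intergenic site 49.7 kb upstream of Ccn1 (Cyr61, a secreted matrix protein and a standard Yap/Tead target) went from 4.81 to 1.63 (-3.18). A site in intron 3 of Sav1, the scaffold that joins the upstream kinases to Lats, went from 4.48 to 2.58 (-1.90), and one in intron 1 of Fat4, an atypical cadherin, from 5.64 to 3.87 (-1.77). In the other direction, a site in intron 3 of Nt5e (a 5′-nucleotidase) went from 3.21 to 4.77 (1.56), one in intron 1 of Wwc1 (Kibra, an upstream activator of the kinases) from 4.18 to 5.70 (1.52), and one 31.5 kb from the Fjx1 TSS, nearer Trim44, from 3.97 to 5.30 (1.33). Below that concentration, a Dock5 site went from 1.48 to 3.46 (1.98), named after its values were seen. The promoters of these 6 genes differed by 0.10, 0.00, 0.11, -0.13, 0.03 and -0.11 in that order.

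**Figure D4:**
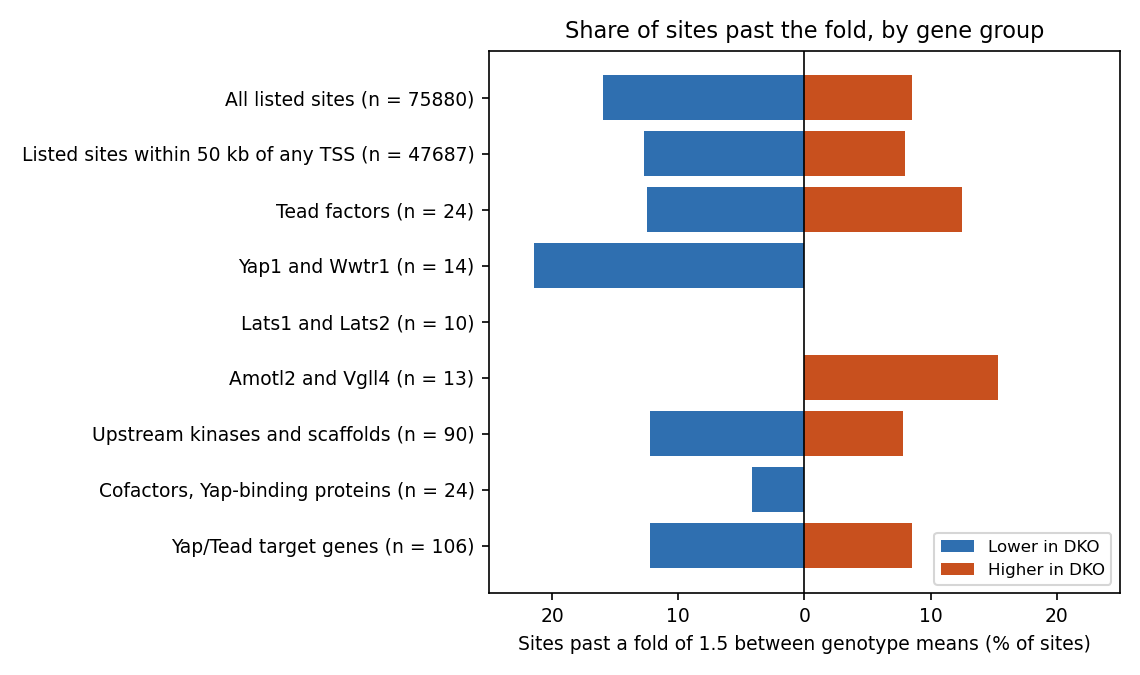
Percent of sites past a fold of 1.5 between the genotype means, lower in DKO to the left and higher to the right, for all listed sites, those within 50 kb of any TSS, the 4 role groups of the 10 genes and the 3 groups of the wider list, with the number of sites in brackets. All listed sites stand at 16.0% and 8.51%, and the Lats kinases at 0 in both directions.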

How the data were processed

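ATAC-seq was performed on 75000 cells per library with 2 technical replicates (100 ng of genomic DNA for the Tn5 control). Per the study's methods, the authors aligned reads to mm10 with Bowtie2 without mixed or discordant pairs, discarded non-unique and blacklisted reads, removed duplicates with SAMtools, found sites with DANPOS2 over the triplicates and the Tn5 control, and compared genotypes with DiffBind. Tool versions, DiffBind's normalization and the handling of the Tn5 cut offset are not given in the sources used here. The deposited values are log2 concentrations, 1 authors' mean per genotype; 0 other per-sample columns were left aside. The 3 columns of the authors' own comparison (fold change, p-value, FDR) and the concentration over both genotypes were not used. Depth per library is unknown.

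Differences (DKO minus WT) and counts past a fold of 1.5 (0.585 on the log2 scale) were computed in Python 3.11.15 with pandas 2.3.3 and numpy 2.4.6. TSSs came from 45756 curated RefSeq transcripts of the GRCm38.p6 annotation, the mm10 build. No listed site ran past a chromosome end (0 sites). Start coordinates were taken as counted from 1. Site search, counting and string search were tested on simulated data. The members, the wider list, the strings and the fold were chosen with earlier results of these data known. For each gene the text names the promoter site, the strongest site and every site past the fold; for the wider list, the 3 largest differences in each direction with a concentration of at least 4. Other sites named were chosen after their values were seen. Alternatives were other distances, folds, pseudocounts, centring, transcripts and motif windows.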

Additional observations from a re-analysis of the deposited data

How the results depend on the processing

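No paired analysis was possible because the table holds 1 mean per genotype, with no column that carries a replicate number. For the same reason no library could be left out. The median differences stayed within 0.1 of the reported ones under each setting tried. Within 10 kb of a TSS, 1 of 24 member sites was lower and 2 higher (4 and 4 of 89 for the wider list). Within 100 kb, 10 of 105 member sites were lower and 8 higher (50 and 32 of 380). The number of sites changes with the distance, and no share over all listed sites was computed for these 2 settings. With a fold of 2, 2 member sites were lower and 0 higher (13 and 5), beside 6.35% and 3.01% of all listed sites; with a difference of over 25%, 15 and 13 (44 and 40), beside 29.1% and 17.3%. Where the gene itself had to be the nearest, 5 of 40 member sites were lower and 3 higher. Of the 137 such sites of the wider list, 12 were lower and 11 higher. Of all listed sites within 50 kb of any TSS, 12.7% were lower and 7.96% higher. With 5 reads added to each mean, 4 member sites were lower and 2 higher. In the wider list 15 sites were then lower and 9 higher, beside 11.6% and 5.45% of all listed sites. The Tead core was at 21.3% of member sites in a window of 200 bp (12.3% of all listed sites), and its longer form at 6.56%. Of the 11 sites past the fold, 9 stayed past it after centring on the median of all listed sites or with 1 read added, and 6 with 5 reads added; the Tead1 site at -0.62 and the Tead2 site at -0.61 dropped out in each of these. Centring on the median of the sites within 1 Mb of each gene, a setting chosen after seeing the data, gave 7 lower and 5 higher. The Fance and Rpl10a promoter sites and the Tead1 site 34.3 kb upstream then no longer passed the fold. Newly past it were the sites 40.9 kb into Tead1 (0.60) and 18.7 kb downstream of the Tead2 TSS (-0.61). So were those 25.0 kb upstream of Tead3 (-0.59) and 2.61 kb upstream of Amotl2 (0.61). No share over all listed sites was computed for this setting. Read depth and the spread between differentiations could not be examined from genotype means.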
